A study of Caenorhabditis elegans with 12 samples.

Results

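The col- genes are numbered collagen genes of C. elegans, mainly cuticle collagens, and 128 of them could be followed in dissected adult germlines. Members were all genes whose symbol starts with col- and for which the array annotation lists at least 1 probe set that names no other gene; a gene's level is the mean of those probe sets. Of the 17085 genes measured this way, 128 were col- genes, 18 of them on the X chromosome and 110 on autosomes. RefSeq lists 159 col- genes, of which 20 were measured only by probe sets that name several genes and 11 had no probe set in the annotation used here. The autosomal members lay on chromosomes I (18), II (23), III (9), IV (37) and V (23), and 2 members are pseudogenes. For 48 members every probe set was of a shared type, designed to match more than 1 transcript, so near-identical collagens may contribute to their values; the other 80 had at least 1 unshared probe set.

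The study compared wild type (the N2 strain) with worms that carried the mes-4 allele ok2326, the lin-54 allele n3423, or both alleles (lin-54; mes-4, the double mutant), with 3 biological replicates of each genotype and so 12 arrays in all. Each sample was RNA from 50 to 70 germlines, cut to run from the mitotic tip through late pachytene, of hermaphrodites that had spent 24 hr at 20° beyond L4 and were young adults. Mutants were M+Z- animals, homozygous offspring of heterozygous mothers that carried the nT1 balancer and supplied the egg with product. By the study's description of the alleles, MES-4 was no longer detectable in such germlines, nor LIN-54 in such adults. The alleles are deletions, and ok2326 removes much of the SET domain of MES-4. MES-4 is a histone methyltransferase that marks lysine 36 of histone H3. LIN-54 is a DNA-binding subunit of the DRM complex (the worm form of DREAM). The comparisons ask what loss of each factor, and of both, does to transcripts in germ cells.

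The cuticle is the collagen exoskeleton of the worm. Its collagens hold runs of a glycine-X-Y repeat, are made mainly by the hypodermis, and are modified by prolyl hydroxylases, cleaved by proteases and crosslinked outside the cell. A new cuticle is laid down at every molt, and different collagens are used at different stages. As products of somatic epidermis they are a family that a germ cell would not be thought to need, and they are spread over both the X chromosome and the autosomes.

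The arrays were alike as a whole. Correlations between arrays of a genotype ran from 0.990 to 0.996 over all genes, and array medians lay between 5.71 and 5.86 on the log2 scale. The lin-54 transcript was at 10.78 to 10.86 in wild type, 10.69 to 10.88 in mes-4, 6.32 to 7.76 in lin-54 and 6.33 to 6.81 in the double mutant. The mes-4 transcript fell by 0.74 in mes-4 (q = 0.000683, limma). In the double mutant it was 0.34 lower than wild type (q = 0.0519, limma), with each double-mutant array below the lowest wild-type array at 10.10. By qRT-PCR the study found that ok2326 homozygotes of this generation still made a truncated, polyadenylated mes-4 transcript. Whether the array's mes-4 probes lie in the deleted stretch is not given in the sources used here, so the mes-4 level does not check that label. The median of 12 germline genes was 10.55 to 11.23 on every array, and the 8 neuronal markers measured had medians of 5.69 to 5.94. The highest neuronal marker on each array was at 10.78 to 11.19, so these medians do not show that each marker was low. In such bulk samples fewer cells of a type and less RNA per cell cannot be told apart.

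In wild-type germlines most col- genes lay above the all-gene median but below the upper quartile of all genes. The median member was at 6.11 (log2, mean of 3 arrays), against 5.78 for all genes, and 83 of 128 members lay between 5 and 7. The distribution was narrow at the top: 14 members (10.9%) exceeded the upper quartile of all genes at 7.92, none was above the 90th percentile of genes, and the highest, col-119, was at 9.09 ± 0.47 (SD, n = 3). RMA levels of different probe sets are not per length and have no common zero, so a low level does not show that a gene was silent. Per array, 89 or 90 of 128 members were above the all-gene median and 13 to 16 above the all-gene upper quartile in wild type.

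X-linked and autosomal members had similar medians in wild type but not similar upper ends. The median over arrays was 6.06 ± 0.04 for the 18 X-linked members and 6.13 ± 0.03 for the 110 autosomal ones (SD, n = 3 arrays). The upper quartile was 6.40 ± 0.08 for X-linked and 7.18 ± 0.08 for autosomal members. All 12 members with a wild-type level above 8 were autosomal: 5 on chromosome IV, 3 on V, 2 on II and 2 on III. Among the X-linked members only col-181 (7.71 ± 0.22) and col-184 (7.32 ± 0.21) exceeded 7, and the lowest was col-44 at 4.87 ± 0.10. Over all genes the X-linked median was 5.51 and the autosomal one 5.84 in wild type, with upper quartiles of 6.36 and 8.67. No test was made between the classes, since genes are not replicates.

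The medians moved little between genotypes. For X-linked members the median over arrays was 5.99 ± 0.23 in mes-4, 6.14 ± 0.07 in lin-54 and 5.95 ± 0.09 in the double mutant (SD, n = 3). For autosomal members it was 6.08 ± 0.13, 6.25 ± 0.07 and 6.14 ± 0.10 in the same order.

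The upper end of the family held collagens that have mostly shared probe sets. Behind col-119 in wild type came col-140 at 8.84 ± 0.09, col-93 at 8.79 ± 0.36, col-160 at 8.71 ± 0.20, col-125 at 8.67 ± 0.26 and col-17 at 8.62 ± 0.14. These neighbours in rank do not differ by more than their spread. Of the 12 members above 8, col-80 alone has an unshared probe set, at 8.14, 8.80 and 8.50. Near-identical collagens may contribute to the others.

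**Figure D1:**
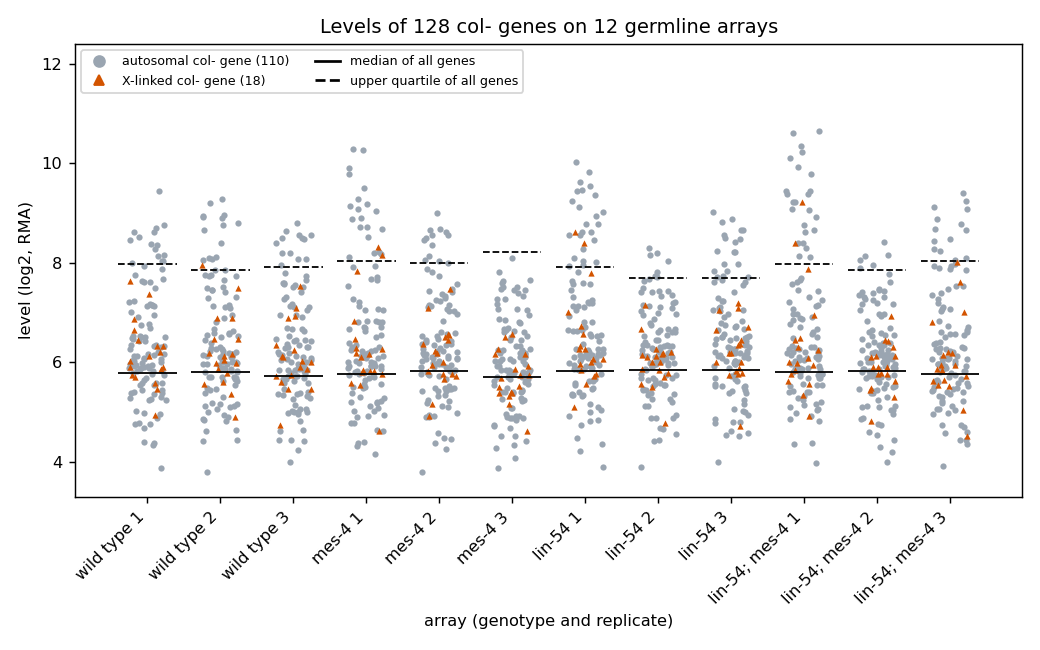
Levels (log2, RMA) of the 110 autosomal (grey circles) and 18 X-linked (orange triangles) col- genes on each of 12 arrays, with the median (solid) and upper quartile (dashed) of all genes; sideways position within an array has no meaning. Most members sit near the all-gene median on every array, and the upper members reach 10.66 on the first lin-54; mes-4 array but only 8.10 on the third mes-4 array.

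Collagens of known stage differed in how far they varied between arrays; their levels come from different probe sets and are not compared. The adult-specific hypodermal collagen col-19, X-linked, was at 6.87, 6.89 and 6.93 in wild type. The dauer collagen col-2 was at 6.06, 5.96 and 5.72, and col-40, also enriched in dauer larvae, was at 3.88, 3.81 and 4.01. Neither col-2 nor col-40 varied widely, with ranges over all 12 arrays of 0.59 and 0.36, whereas col-19 spanned 2.78. Small ranges were usual for col- genes at such levels. The median range was 0.51 at mean levels of 3.94 to 5.69, where col-40 lay, and 0.49 at 5.69 to 6.14, where col-2 lay. At 6.14 to 7.06, where col-19 lay, it was 0.62. The transmembrane collagen col-99 stayed between 5.67 and 6.16 on all arrays. The collagen col-120, linked to long life in C. elegans, stayed between 4.31 and 4.98.

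Loss of MES-4 was followed by no called change in any col- gene. In mes-4 against wild type, 0 of 128 members were called up and 0 down at q ≤ 0.05, beside 3.86% of all genes up and 2.11% down (limma on all 17085 genes, Storey q values). At an unadjusted p under 0.05, 0 members were up and 2 down, beside 7.95% and 7.57% of all genes, and the smallest member q was 0.172. Groups did not overlap in 2 members with mes-4 higher and 10 with mes-4 lower (1.56% and 7.81%), beside 8.8% and 11.5% of all genes. The median difference was -0.08 over members and -0.04 over all genes, on the log2 scale. The 95% confidence interval lay within a 2-fold change in either direction for 105 of the 128 members. For the other 23 it was wider and allowed such a change, the widest running from -2.32 to 1.52 for col-122.

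Calls in mes-4 were most frequent on the X chromosome, where 17.2% of all genes were called up (406 of 2355) and 0.212% down. None of the 18 X-linked col- genes was called in either direction. At an unadjusted p under 0.05 (limma), 0 of the 18 were up and 2 down (11.1%), beside 25.9% and 1.78% of all X-linked genes. No autosomal member was down at that p. The differences of the 18 ran from -0.28 to 0.03, and 3 of 18 were above 0. For 15 of them the interval excluded a 2-fold rise, and most intervals were far narrower than that: col-165 lay between -0.17 and 0.20, and col-9 between -0.30 and 0.30. The DBL-1 (BMP) pathway target col-41 stood at 6.32, 6.47 and 6.24 in wild type and 6.27, 6.56 and 5.94 in mes-4, overlapping groups that differed by -0.09 (-0.39 to 0.21, q = 0.688). The remaining 3, col-19, col-181 and col-184, had intervals reaching 1.40, 1.26 and 1.07, so a 2-fold rise was not excluded for them. The lowest value in mes-4 relative to wild type with a small error was col-174, with 5.58, 5.57 and 5.72 in wild type and 5.54, 5.16 and 5.34 in mes-4. Its groups did not overlap, but the difference of -0.28 was not called (q = 0.172). It was 1 of 2 X-linked members with all mes-4 arrays below wild type, beside 4.67% of all X-linked genes; the other was col-187, at 6.21, 6.17 and 6.12 in wild type and 6.11, 5.94 and 5.87 in mes-4.

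With LIN-54 missing as well, loss of MES-4 was again followed by no called change in the X-linked collagens. In lin-54; mes-4 against lin-54, 0 of 18 were called, beside 8.79% of all X-linked genes called up and 0.212% down, and 15 of 18 differences were below 0. At an unadjusted p under 0.05, 5 of them were lower, against 6.54% of all X-linked genes, and in 8 the double-mutant arrays lay wholly below lin-54, against 11.6%. Over all members these counts were 18 and 21 of 128, and 0 and 0 in the other direction. Over all genes 9.24% were lower and 5.29% higher at that p, and 13.9% and 6.32% had groups that did not overlap. The lowest q was 0.0586, for col-177, which was at 6.01, 6.12 and 6.19 in lin-54 and 5.86, 5.77 and 5.85 in the double mutant. Its difference was -0.28 (-0.44 to -0.12), and it passed the threshold (q = 0.0347) without the first lin-54 array. The same lin-54 arrays enter the comparison with wild type, where 4 of the 18 were higher at an unadjusted p under 0.05, beside 9.94% of all X-linked genes. In the double mutant against wild type 0 of the 18 were higher and 0 lower at that p, beside 11.3% and 2.85%. Their median difference there was -0.05.

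**Figure D2:**
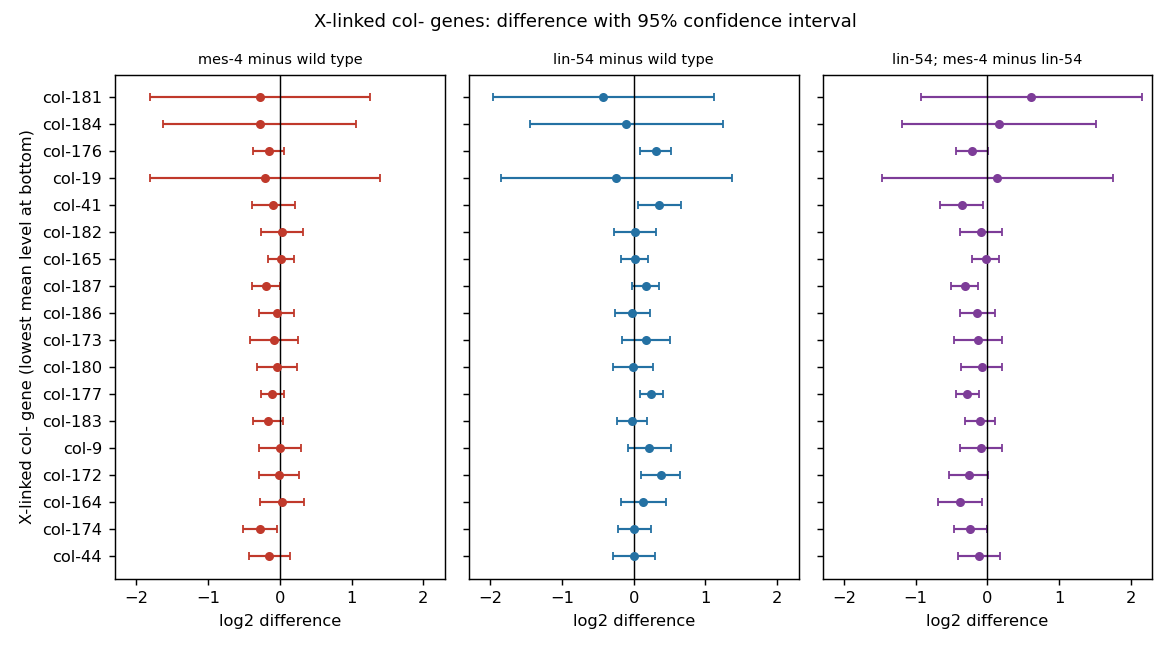
Log2 differences (points) with 95% confidence intervals (bars, limma) of the 18 X-linked col- genes in 3 comparisons, ordered by mean level. In mes-4 minus wild type all points lie between -0.28 and 0.03, and col-19, col-181 and col-184 have far wider intervals than the other 15 in each panel.

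Loss of LIN-54 came with small increases in 3 col- genes. In lin-54 against wild type 3 of 128 members (2.34%) were called up and 0 down, beside 3.12% of all genes up and 3.61% down, so the share called up was below that of all genes. The gene col-148 (chromosome V) was at 5.89, 6.0 and 5.90 in wild type and at 6.26, 6.32 and 6.32 in lin-54. The groups did not overlap, and it rose by 0.37 ± 0.08 (SE, q = 0.0171). It stood at 6.14, 6.17 and 5.97 in mes-4 and at 6.29, 6.16 and 6.10 in the double mutant.

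The gene col-33 (chromosome IV) was at 5.94, 6.11 and 6.11 in wild type and 6.54, 6.25 and 6.38 in lin-54. It rose by 0.33 ± 0.09 (q = 0.0384), with every lin-54 array above every wild-type array. The gene col-90 (chromosome III) was at 5.36, 5.46 and 5.36 in wild type and 5.65, 5.64 and 5.72 in lin-54, a rise of 0.28 ± 0.08 (q = 0.0466). All 3 have unshared probe sets and lie on autosomes. No separate role of these 3 collagens is given in the sources used here.

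The calls in lin-54 lay close to the threshold. The call of col-148 was lost without wild-type array 1 or 3 or lin-54 array 2 or 3 (q 0.0555 to 0.0747). The calls of col-33 and col-90 were both lost with Benjamini-Hochberg adjustment (0.0664 and 0.0804), a variance trend (0.0509 and 0.0514), centring of each array at its median over autosomal genes (0.13 and 0.126), or without wild-type array 1, 2 or 3, lin-54 array 1 or 3 or double-mutant array 3. Of these, leaving out an array gave q up to 0.139 for col-33 and up to 0.159 for col-90. The call of col-33 held without lin-54 array 2 (0.0392), where that of col-90 did not (0.0947). It was lost when the fit held the 2 compared genotypes alone (0.0575). The call of col-90 was also lost without mes-4 array 1 or 2 (0.0563 and 0.0526). It was lost as well with the most significant probe set per gene, the study's way (0.0552), and without shared probe sets (0.0534). Leaving out any 1 array gave between 0 and 6 members called up, the 6 without the third mes-4 array.

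Most col- genes lay slightly higher in lin-54, as did most genes: the difference was above 0 for 97 of 128 members and for 10666 of 17085 genes. At an unadjusted p under 0.05, 17 members were higher in lin-54 (13.3%) and 1 lower, beside 11.7% and 8.72% of all genes. In 24 members the lin-54 arrays lay wholly above wild type, 18.8% against 16.8% of all genes, and in 0 wholly below, against 10.4%. The median difference was 0.10 over members and 0.05 over all genes, and the members' median was 0.02 after arrays were centred. Among X-linked members 4 passed p under 0.05 (col-172, col-176, col-177 and col-41, each 0.25 to 0.37 higher with q between 0.0506 and 0.0994), against 9.94% of all X-linked genes. None of the 18 was called, beside 2.25% of X-linked genes up and 4.16% down. For col-41 every lin-54 array, at 6.74, 6.66 and 6.71, lay above every wild-type array.

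In the double mutant the difference from lin-54 was called for col-33 alone. It was at 5.90, 6.09 and 5.97 in lin-54; mes-4 against 6.54, 6.25 and 6.38 in lin-54, and fell by 0.40 ± 0.09 on the log2 scale (q = 0.0294), beside 1.22% of all genes down. No member was called up in that comparison, beside 1.78% of all genes. The comparison shares the lin-54 arrays with the one against wild type, in which col-33 was higher in lin-54. Its double-mutant arrays overlapped wild type, with a difference of -0.07. The call was lost with arrays centred on the autosomal median (q = 0.105) and without lin-54 array 1 or 3 or double-mutant array 1 or 3 (q 0.064 to 0.109).

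Against mes-4 and against wild type no member of the double mutant was called. The counts were 0 up and 0 down of 128 in both, beside 2.75% up and 5.46% down of all genes against mes-4, and 2.18% and 2.94% against wild type. Unadjusted p values under 0.05 numbered 7 up and 0 down against mes-4 and 1 up and 2 down against wild type. Over all genes these shares were 8.88% and 10.3% against mes-4 and 6.48% and 8.86% against wild type. Without the second double-mutant array col-109 and col-111 passed the threshold against mes-4, and without the first col-50 did against wild type and against lin-54. The interaction of the 2 mutations was called for 0 members, beside 0.0351% of all genes up and 0.0293% down, with 1 and 3 members at an unadjusted p under 0.05 beside 1.73% and 2.94% of all genes. These comparisons share arrays with one another, so their counts are not independent.

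A group of col- genes differed widely between replicate arrays of the mutant genotypes. The SD between replicates within genotypes, pooled over the 4 genotypes, had a median of 0.17 over members and 0.13 over all genes. Of the 128 members, 31 were in the top 5% of all genes by this SD, and 19 (14.8%) were in the top 1%. The spread rose with level: in the 32 members with mean levels above 7.06 its median was 0.68, against 0.22 over all 1666 genes in the same span of levels. In the 32 lowest it was 0.13 against 0.12. Of members with only shared probe sets, 23 of 48 were in the top 5%, and of the 80 others 8 were; the shared ones also had the higher median level in wild type, 7.08 against 5.95. Of the 18 X-linked members 3 spanned more than 2 over the arrays (16.7%), against 13.3% of all X-linked genes.

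**Figure D3:**
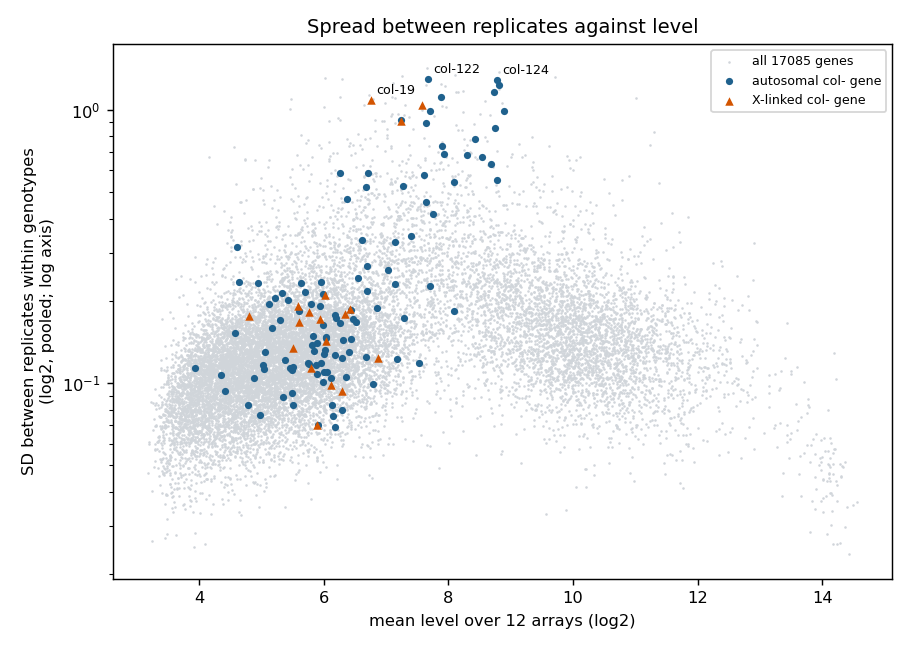
SD between replicates within genotypes (pooled over 4 genotypes, log2, on a log axis) against the mean level of each gene over 12 arrays, for all 17085 genes (grey), autosomal (blue) and X-linked (orange) col- genes. Col- genes above a level of about 7 lie along the upper edge of the cloud, reaching 1.30 for col-122.

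These members moved together, array by array. The widest range was that of col-124 (chromosome IV), at 8.36, 8.96 and 8.47 in wild type, 10.30, 8.56 and 7.40 in mes-4, 9.82, 7.13 and 9.02 in lin-54, and 10.61, 7.47 and 9.25 in the double mutant. Its first array was the highest in each mutant, and the third mes-4, the second lin-54 and the second double-mutant array were the lowest. The 3 wild-type arrays lay between these extremes.

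The highest member in wild type, col-119, ran at 9.44, 9.28 and 8.56 in wild type, 10.26, 9.01 and 7.51 in mes-4, 9.63, 7.0 and 8.49 in lin-54, and 10.35, 7.35 and 8.89 in the double mutant. For col-122, which has an unshared probe set, wild type was at 8.03, 8.12 and 7.61 and lin-54 at 8.95, 5.98 and 7.11. Its mes-4 arrays were at 8.88, 7.44 and 6.22 and its double-mutant arrays at 9.38, 6.17 and 8.11. The same arrays were again the high and low ones in all 3 mutants.

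The chromosome V gene col-140 was at 8.77, 8.93 and 8.80 in wild type and at 10.66, 7.31 and 9.09 in the double mutant, with 9.90, 8.66 and 7.47 in mes-4 and 9.55, 7.50 and 8.21 in lin-54. On the X chromosome col-181 was at 7.64, 7.95 and 7.53 in wild type and at 9.22, 6.46 and 8.01 in the double mutant. The adult collagen col-19, with an unshared probe set, was at 8.17, 6.52 and 5.39 in mes-4, 7.80, 5.51 and 6.66 in lin-54 and 7.88, 5.49 and 7.01 in the double mutant. Its wild-type SD was 0.03 and its mutant SDs 1.40, 1.14 and 1.21. The genotype means of col-19, from 6.66 to 6.90, differed by far less than the spread between replicates.

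A range above 2 over the 12 arrays, a limit chosen after the values were seen, was met by 18 members (14.1%), against 3.85% of all genes. The 18 were on chromosomes V (6), IV (5), X (3), II (2) and III (2), with none of the 18 chromosome I members. The last inside the limit was col-43 at 2.05 and the first outside col-125 at 1.97, so the limit falls in a run of values. In all 18 the first array was the highest and the third the lowest in mes-4, and the first was the highest and the second the lowest in both lin-54 and the double mutant. Their SD had a median of 0.19 in wild type, 1.00 in mes-4, 1.02 in lin-54 and 1.22 in the double mutant. As these were selected for their range, no test was made on them.

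The array pattern reached beyond the wide-ranging members. Over all 128 members the third mes-4 array was the lowest mes-4 array for 114 (89.1%), against 46.4% of all genes, and the lowest of all 12 arrays for 75 (58.6%), against 23.9%. The first double-mutant array was the highest of its genotype for 96 of 128 members, against 32.7% of all genes, and the highest of all 12 for 41, or 32.0% against 5.62%. The first lin-54 array was the highest of its genotype for 79 members (61.7% against 33.1%). The median over members was 5.86 on the third mes-4 array and 6.14 to 6.16 on the other mes-4 arrays.

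**Figure D4:**
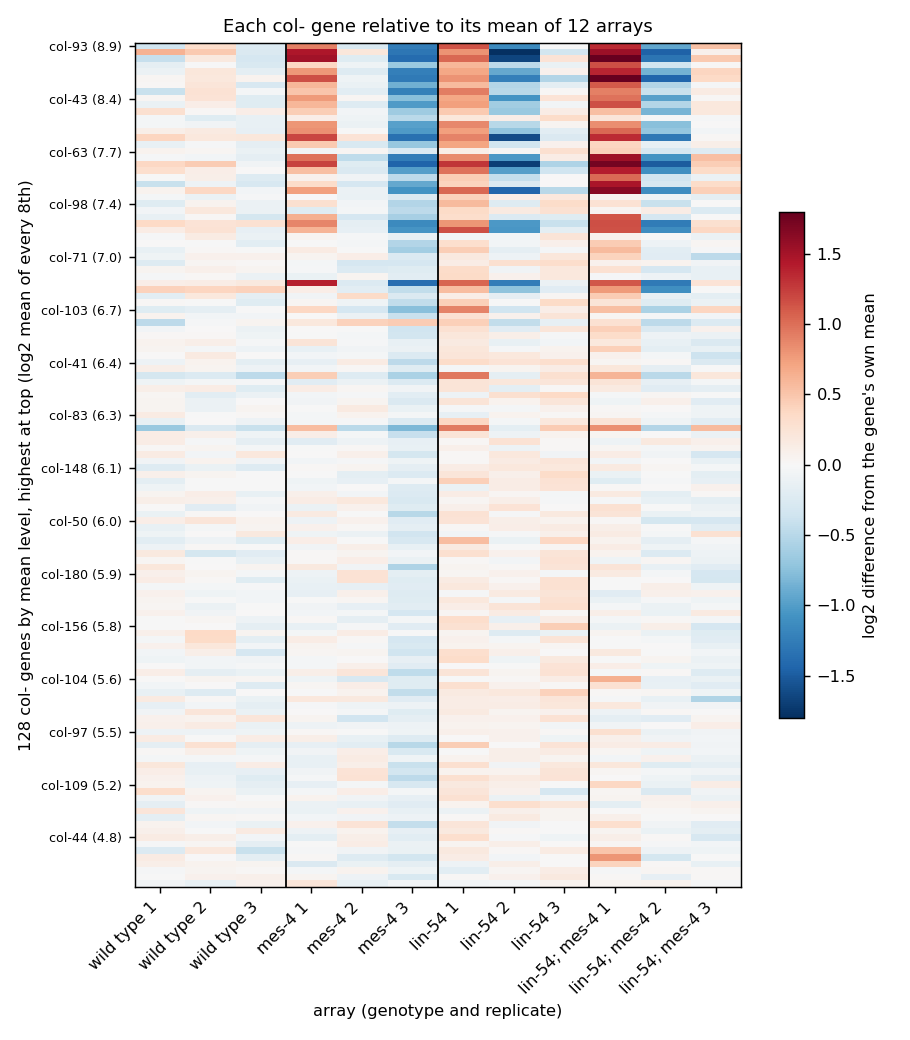
Each row is 1 of 128 col- genes, ordered by mean level with the highest at the top (every 8th named, with its mean), and each column 1 of 12 arrays; colour gives the log2 difference from the gene's own mean over 12 arrays, clipped at 1.8 either way. The upper rows are red on the first array of each mutant genotype and blue on the third mes-4, the second lin-54 and second double-mutant arrays, while wild-type columns are pale.

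Neighbouring collagen genes did not always share the pattern. In the RefSeq gene order (assembly WBcel235) 12 pairs of members are adjacent protein-coding genes. On chromosome V, col-159 and col-160 ranged over 2.77 and 2.60. On chromosome II the run col-17, col-20 and col-73 ranged over 1.84, 2.05 and 1.72. On the X chromosome col-184 ranged over 2.28 and its neighbour col-183 over 0.49, at wild-type levels of 7.32 and 5.87. On chromosome II col-80 ranged over 2.13 beside 0.62 for col-39, at wild-type levels of 8.48 and 6.20. In these unlike pairs the gene of wider range was also the higher one. Over all members the median range was 0.62 at mean levels of 6.14 to 7.06 and 2.05 above. Neighbours were not compared at equal level.

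Collagens known by mutant names included a few with the same array pattern. Of 21 listed, 18 were measured, with array medians of 5.70 to 6.19, and 1 was called in any comparison. This was dpy-8, which rose by 0.34 in lin-54 against wild type (q = 0.0451, limma), where 3.12% of all genes were called up. The call held under 6 of 19 alternatives. The body-length collagen dpy-13 was at 8.47, 8.62 and 8.25 in wild type, 9.43, 8.31 and 7.36 in mes-4, 9.49, 7.39 and 8.42 in lin-54, and 10.08, 7.62 and 8.59 in the double mutant. The same arrays were high and low as for col-124. The collagens dpy-4 and sqt-3 spanned 1.86 and 2.24 with their highest value on the same double-mutant array. By contrast dpy-7, which shapes the furrows of the cuticle, spanned 0.86, and rol-6, known from its roller mutants, 0.71.

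Genes that act with collagens in the hypodermis did not span such ranges, but the array medians of these lists were below 7.06. Col- genes at such levels also varied little: the median range was 0.49 at mean levels of 5.69 to 6.14 and 0.62 at 6.14 to 7.06. The lists were not compared with the wide-ranging collagens at equal level. The 28 cuticlins and molting factors measured had ranges of 0.18 to 0.79 and none was called in any comparison. Hypodermal and seam markers (10 measured), among them the transcription factors elt-3, nhr-23 and lin-29, had array medians of 6.32 to 6.59, ranges of at most 0.77, and no calls. No comparison called more than 5.46% of all genes in a direction, so few calls would be looked for in lists this short. In these dissected germlines the hypodermal factor elt-3 was at 4.66 to 5.0, at the low end of the list. The highest of the 10 markers on each array was at 9.67 to 10.18.

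Several genes of a list for collagen modification, secretion and processing changed by genotype. The list also holds signalling genes such as sma-3. Of its 27 measured genes, 4 were called down in lin-54 against wild type (pdi-2, pdi-3, sec-24.1 and sma-9), beside 3.61% of all genes. In the double mutant against mes-4, 5 were called down and 1 up, beside 5.46% and 2.75% of all genes. The prolyl 4-hydroxylase subunit pdi-2, X-linked, was at 8.34, 8.23 and 7.69 in wild type, 8.74, 8.65 and 8.98 in mes-4, 6.75, 6.12 and 5.55 in lin-54 and 6.82, 6.95 and 6.46 in the double mutant. It fell by 1.95 in lin-54 against wild type (q = 0.0019). The astacin protease dpy-31, which trims procollagen, was at 5.56, 5.18 and 6.03 in wild type and at 7.59, 7.76 and 7.81 in the double mutant. It was 2.13 higher there than in wild type (q = 2.64e-05), at 5.39 to 5.51 in mes-4 and at 6.02 to 6.25 in lin-54. The Smad sma-3, a DBL-1 signal transducer, rose by 1.21 in mes-4 against wild type (q = 0.00124), from 4.97 to 5.16 up to 5.93 to 6.68.

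Markers of other tissues also varied between arrays, and some shared part of the collagens' order. The vitellogenin vit-2, a yolk protein gene of the intestine, was at 8.99, 7.40 and 8.48 in wild type, 10.68, 8.45 and 6.96 in mes-4, 9.07, 9.33 and 6.32 in lin-54 and 7.49, 6.62 and 7.46 in the double mutant. It was high on the first and low on the third mes-4 array, as the collagens were, but among lin-54 arrays it was highest on the second and lowest on the third. The median of the 11 intestinal genes ranged from 6.39 to 9.29 over the arrays, and the gut transcription factor elt-2 stayed at 4.64 to 4.98. The muscle troponin T mup-2 was at 8.94 on the first lin-54 array and at 8.54, 7.78 and 8.59 in the double mutant, and at 7.70, 7.74 and 7.39 in mes-4. The median of the 9 muscle genes was 5.71, 5.83 and 5.53 in mes-4, 5.96, 5.71 and 5.93 in lin-54, and 5.97, 5.76 and 5.95 in the double mutant. These medians were lowest on the same mutant arrays as the collagens, and highest on the same ones in lin-54 and the double mutant but not in mes-4. None of the 9 was called in any comparison, beside at most 5.46% of all genes in a direction. The body wall myosin myo-3 stayed at 3.76 to 4.06.

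Major sperm protein genes (23 measured) shared the collagens' order of arrays in both genotypes without LIN-54. Their median was 10.12, 7.13 and 8.82 in lin-54 and 10.15, 7.70 and 9.52 in the double mutant, highest on the first and lowest on the second array as for col-124. In mes-4 it was 6.37, 6.65 and 6.28 and in wild type 6.43, 6.52 and 6.35, so these genes were not high on the first mes-4 array, where the collagens were. Of the 23, 15 were called up in lin-54 against wild type, beside 3.12% of all genes, while the wide-ranging collagens were not called.

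Of 11 sheath and somatic gonad genes, 2 were called down and 1 up in lin-54 against wild type, beside 3.61% and 3.12% of all genes, and the median difference of the list was 0.09. The innexin inx-8, a gap junction gene of the gonadal sheath, was at 9.83, 10.47 and 9.79 in wild type and 8.10, 7.41 and 7.21 in lin-54. It fell by 2.46 (q = 0.00115) and tbh-1 by 3.47 (q = 0.00024), while mig-6 rose by 0.38 (q = 0.0489). How far RNA of these tissues moved with the collagens was not tested, and no fit here adjusts for it.

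**Figure D5:**
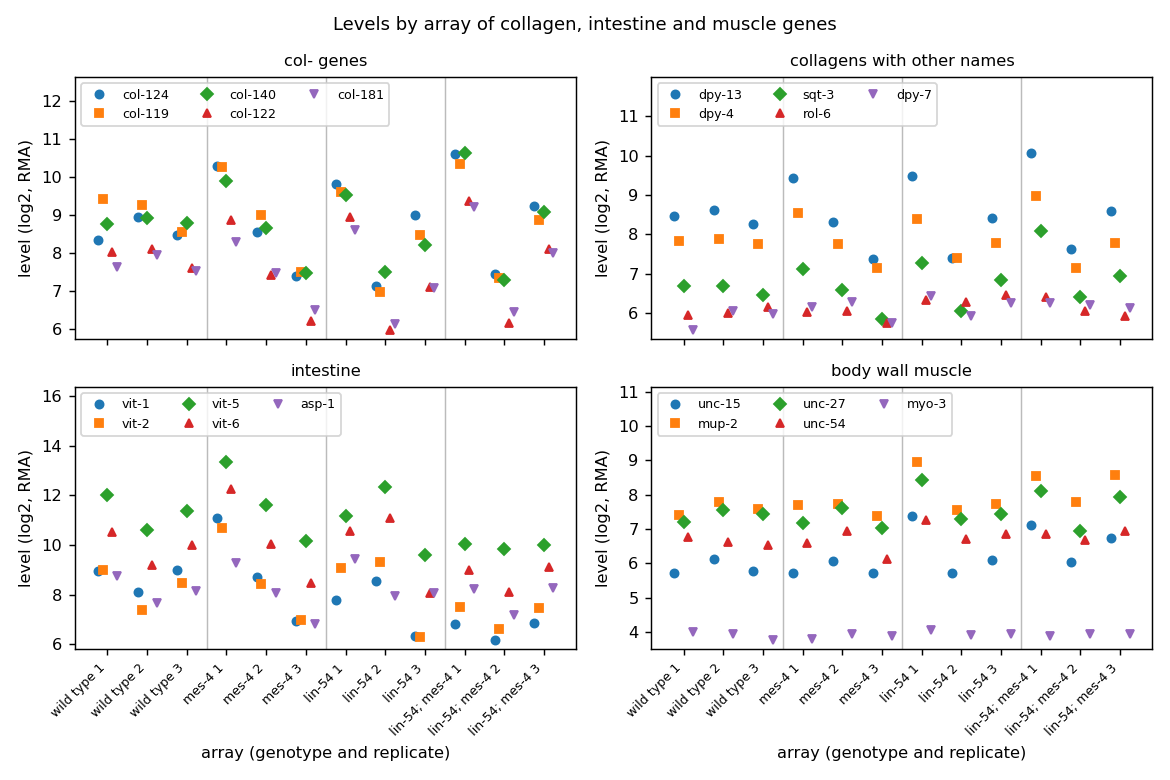
Levels (log2, RMA) on each of 12 arrays of the 5 col- genes of widest range, 5 collagens with other names, 5 intestinal and 5 muscle genes; each symbol is 1 array. The upper col- genes and dpy-13, dpy-4 and sqt-3 share their high and low arrays, whereas vit-1 and vit-2 peak on the first mes-4 array and unc-15, mup-2 and unc-27 on the first lin-54 array.

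The 17 probe sets that name several genes, at least 1 of them a col- gene, are not part of these counts. None was called in any comparison when tested with all probe sets (smallest q 0.375). They carried the same array pattern: 8 of 17 spanned more than 2, and 15 were highest on the first double-mutant array. The widest belongs to col-178 and col-179, at 8.60, 8.61 and 8.33 in wild type and 10.06, 6.60 and 8.53 in the double mutant. One of 3 probe sets for col-10 and col-144 stood at 8.86, 8.78 and 8.44 in wild type and 10.15, 7.73 and 8.87 in the double mutant; col-10 is a collagen linked to long life. A probe set for the pair col-12 and col-13 spanned 1.41, and col-12 alone, by its own shared probe set, 2.39. The narrowest, 0.39, covers col-62 and col-7, the latter an adult-stage collagen, at 6.05, 6.25 and 6.09 in wild type.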

How the data were processed

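RNA from dissected germlines was hybridised to Affymetrix GeneChip C. elegans arrays, 12 in all. Per the labels and the study's methods, RNA was linearly amplified and the authors quantile normalized the arrays and summarised probe sets by robust multichip average (affy; versions not given in the sources used here), and the deposited values are log2 expression levels. A level is therefore relative to all probe sets of an array, and shared probes can add signal from near-identical collagens. Replicates are biological, and their small number (3 per genotype) limits precision.

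Probe sets were matched to genes through the platform annotation. Of 22548 probe sets (77 controls left out), 20701 named 1 gene and were averaged per gene into 17085 genes; 887 named several genes. Chromosomes came from RefSeq (assembly WBcel235). limma 3.58.1 in R 4.3.3 fitted 1 mean per genotype over all genes (lmFit, eBayes), and p values became Storey q values over all genes (lambda from 0 to 0.9 by 0.05, spline with 3 degrees of freedom), called at q ≤ 0.05. Intervals are 95% intervals of that fit. The fit was tested on simulated data with known changes, in which noise was independent between genes and each gene had the same SD in every genotype. The wide-ranging collagens moved together and had larger SDs in the mutants, so that test does not cover them. The members and gene lists were chosen with earlier results of these data known. Genes named were called col- genes, the 10 highest and 5 widest-ranging, all X-linked ones, those of known role and, from other lists, called members; other members in the text were chosen after their values were seen. Alternatives were: the most significant probe set per gene (the methods' way), Benjamini-Hochberg adjustment, unshared probe sets, genes above the median level, arrays centred on the autosomal median, a variance trend, only the groups compared, a replicate block, and each array left out. No sequences were printed, since none were in the sources used here.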

Additional observations from a re-analysis of the deposited data

Results flagged for a closer look

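No col- gene had a called interaction of the lin-54 and mes-4 mutations. Among the collagen-processing genes, the effect of losing both factors on the procollagen protease dpy-31 differed from the sum of the single effects by 1.77 on the log2 scale (SE 0.24, q = 0.0221, limma). It was higher in 3 of 3 double-mutant arrays than on any other array. The difference kept its direction under all 19 alternatives (1.55 to 1.98, q between 0.0042 and 0.0888) and was past the threshold in 13 of them. It missed the threshold without wild-type array 1, mes-4 array 2, any of the 3 lin-54 arrays or double-mutant array 3.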

How the results depend on the processing

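For lin-54 against wild type, the number of col- genes called up was 3 and became 1 with Benjamini-Hochberg adjustment, with arrays centred on the autosomal median or with a variance trend, and 6 when the fit held the 2 compared genotypes alone. It was 0 to 6 with 1 array left out. For lin-54; mes-4 against lin-54, the 1 called down became 0 with centring or with the 2 genotypes alone, and was 0 to 1 with 1 array left out. For lin-54; mes-4 against mes-4, 0 up became 1 among genes above the median level (col-111) and was 0 to 2 with 1 array left out; against wild type 0 down was 0 to 1 with 1 array left out. For mes-4 against wild type, 0 down became 1 with the 2 genotypes alone (col-95). The other 86 counts under alternatives that kept all arrays were within 1.5 times, and no called difference of a col- gene reversed.

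Median levels of col- genes moved beyond the replicate SD when genes below the median level were left out: to 6.28 (X-linked) and 6.52 (autosomal) in wild type, 6.49 (autosomal) in mes-4, 6.34 and 6.73 in lin-54, and 6.22 and 6.61 in lin-54; mes-4. Without shared probe sets they moved to 5.91, 5.90 and 5.94 for autosomal members in wild type, mes-4 and lin-54; mes-4, and to 6.03 (X-linked) and 6.09 (autosomal) in lin-54. Leaving out 1 array of a genotype moved none of the 8 medians beyond that SD.

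With the replicate number as a block, 4 col- genes were called up in lin-54 (col-102 was added), 1 was down in lin-54; mes-4 against lin-54, and no other col- gene was called. The numbers were not used as pairs, since 9 of 18 same-numbered pairs of arrays, not all, correlated above 0.1 in their deviations from the genotype means over all genes (-0.049 to 0.436). The same number gave the highest correlation in 25 of 36 cases, a hint of pairing from the data. By the study's methods, germlines of the genotypes were gathered and processed in parallel. The methods do not say whether arrays of equal number came from the same collection, and that was not tested. Over the 128 col- genes the first arrays of the 3 mutants correlated at 0.886 to 0.906 and the second of lin-54 and lin-54; mes-4 at 0.925, but the third mes-4 array correlated best with the second arrays of the other mutants (0.909 and 0.896). The alternatives for 6 genes that are not col- genes were chosen after seeing the data. With 3 arrays per genotype and replicate SDs above 1, the intervals of the most variable collagens allowed changes beyond 2-fold.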
